A study of Homo sapiens with 22 samples.

Results

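The neuropilin and vascular endothelial growth factor (VEGF) gene loci were followed through 22 lists of chromatin regions from prostate cancer cell lines. A locus was the body of NRP1, NRP2, VEGFA, VEGFC, KDR or FLT1 with 100 kb on either side, and every deposited region that overlapped it by at least 1 bp was a member. In all, 934 of the 871377 regions in the 22 lists lay at these 6 of 20163 protein-coding genes. The loci were chosen by measured values, because the strongest FOXA2 and JUN regions that stayed listed after treatment in PC3 cells, outside places found in at least 17 of the 22 lists, lay near NRP1. The PC3 FOXA2 and JUN regions at NRP1, their scores and their persistence are therefore given as a description with no test. No region at the 6 loci was itself such a recurrent place.

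The study asked how the pioneer factor FOXA2 and the AP-1 complex occupy enhancers in prostate cancer that no longer depends on the androgen receptor. PC3 cells lack the androgen receptor and neuroendocrine features, NCI-H660 cells are neuroendocrine, and LNCaP cells are luminal and express the androgen receptor. FOXA2 was mapped by ChIP-seq in PC3 with vehicle, with the LSD1 inhibitor ORY-1001 (10 µM, 4 h) or with the LSD1 inhibitor C12 (0.5 µM, 4 h), and in NCI-H660 with vehicle or ORY-1001 (10 µM, 4 h). JUN was mapped in PC3 and NCI-H660 with control siRNA (siNC) or siRNA against FOXA2 (siFOXA2), and FOSL1 in PC3 with the same siRNAs. H3K27ac and ATAC-seq in PC3 and H3K4me2 and ATAC-seq in NCI-H660 were mapped with vehicle. LNCaP gave JUN with siNC or siFOXA1, FOXA2 and JUN in cells overexpressing FOXA2 (FOXA2OE), and JUN in cells titled FOXA2K265R, whose cell line label reads FOXA2OE. A further 2 FOXA2 ChIPs in PC3 were titled vehicle but carried no antibody label, and are called the other ChIPs to set them apart from the vehicle list, whose antibody is labelled. Each group held 1 list apart from the last, which held 2, so no p-value could be given, and the depth behind the lists is not in the files. None of the lists measures FOXA2 itself, so the efficiency of the silencing was not checked here.

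Neuropilins are transmembrane co-receptors that bind VEGF proteins and class 3 semaphorins and pass these signals on through partner receptors. VEGFA is the main ligand of blood vessel growth and VEGFC that of lymphatic vessel growth. KDR (VEGFR2) and FLT1 (VEGFR1) are receptor tyrosine kinases for VEGF ligands, KDR being the principal signalling receptor and FLT1 often acting as a decoy. FOXA2 is a forkhead protein that can bind closed chromatin, and JUN and FOSL1 are subunits of AP-1, a dimeric factor that recognises a short, nearly palindromic site.

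The genome sequence (GRCh37, the assembly of hg19) of the regions on which the account rests is shown as stretches of 120 bases on the plus strand, each chosen inside the region to hold the most motif matches. Capitals mark the AP-1 motif, written TGACTCA or TGAGTCA, which are the reverse complements of each other, and the forkhead motif, written as TATTT or TGTTT with AC, AT, GC or GT directly after it, on either strand. At NRP1 these are the PC3 FOXA2 region with the highest score (chr10:33445057-33445176), the next 2 by score (chr10:33553259-33553378 and chr10:33580248-33580367), and 2 PC3 JUN regions that persisted after FOXA2 silencing (chr10:33423105-33423224 and chr10:33654962-33655081). VEGFC is represented by its PC3 FOXA2 region with the highest score (chr4:177715498-177715617), VEGFA by the NCI-H660 JUN region with the highest score (chr6:43766667-43766786), and KDR by the PC3 FOXA2 region in its intron (chr4:55988603-55988722).
NRP1 180 kb downstream, FOXA2: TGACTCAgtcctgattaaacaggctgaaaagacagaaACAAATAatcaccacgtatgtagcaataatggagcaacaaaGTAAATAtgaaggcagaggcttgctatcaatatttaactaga
NRP1 71.8 kb downstream, FOXA2 and JUN: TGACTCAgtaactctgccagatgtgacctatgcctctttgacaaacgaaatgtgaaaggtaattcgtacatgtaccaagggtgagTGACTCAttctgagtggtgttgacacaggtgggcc
NRP1 44.9 kb downstream, FOXA2: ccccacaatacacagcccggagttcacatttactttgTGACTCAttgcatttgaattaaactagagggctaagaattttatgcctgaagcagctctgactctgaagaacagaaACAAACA
NRP1 202 kb downstream, JUN: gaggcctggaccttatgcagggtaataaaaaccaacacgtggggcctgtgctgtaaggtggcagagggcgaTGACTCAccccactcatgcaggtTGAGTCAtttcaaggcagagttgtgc
NRP1 29.8 kb upstream, JUN: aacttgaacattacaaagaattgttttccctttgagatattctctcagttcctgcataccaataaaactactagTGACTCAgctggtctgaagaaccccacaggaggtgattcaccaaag
VEGFC 1.45 kb upstream, FOXA2: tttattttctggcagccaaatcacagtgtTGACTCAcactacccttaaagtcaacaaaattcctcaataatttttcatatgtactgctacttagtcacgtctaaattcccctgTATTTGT
VEGFA 28.8 kb downstream, JUN: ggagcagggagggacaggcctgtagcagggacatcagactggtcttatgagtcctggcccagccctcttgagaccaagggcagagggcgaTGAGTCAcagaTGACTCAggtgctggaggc
KDR 3.1 kb downstream, FOXA2: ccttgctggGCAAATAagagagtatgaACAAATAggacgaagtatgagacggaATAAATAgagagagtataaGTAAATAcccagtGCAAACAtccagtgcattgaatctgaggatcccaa
The strongest NRP1 FOXA2 stretch held 1 AP-1 and 2 forkhead matches, and its region held a further AP-1 match outside the stretch. The JUN region 202 kb downstream held 2 AP-1 matches and no forkhead match over its 495 bases. The KDR intron region was the opposite case, with 6 forkhead matches and no AP-1 match over 413 bases. A match is a description of the letters and not evidence of binding. The names before the stretches do not list every factor found there. PC3 JUN in siNC was also listed at the NRP1 regions 180 kb (2934) and 44.9 kb (705) downstream and at the VEGFC region (150). PC3 FOXA2 with vehicle was also listed at the NRP1 region 29.8 kb upstream (249).

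NRP1 held most of the PC3 FOXA2 and JUN regions at the 6 loci, and the other 5 genes held fewer. The median over all protein-coding genes was 1 region for PC3 FOXA2 and 2 for PC3 JUN. NRP2, VEGFA, VEGFC and KDR were above the FOXA2 median, and FLT1 was at it. For JUN, NRP2, VEGFC and KDR were above the median, FLT1 was at it and VEGFA below it. PC3 FOXA2 with vehicle had 39 regions in all, 24 at NRP1, 3 at NRP2, 3 at VEGFA, 4 at VEGFC, 4 at KDR and 1 at FLT1. PC3 JUN with siNC had 35, of which 23 lay at NRP1, 3 at NRP2, 1 at VEGFA, 3 at VEGFC, 3 at KDR and 2 at FLT1. NCI-H660 was spread differently, with FOXA2 at 3, 4, 4, 0, 6 and 1 places and JUN at 6, 4, 5, 0, 2 and 0 places in the same gene order. Of the 6 genes, 6 had a PC3 FOXA2 region and 6 a PC3 JUN region, against 70.2% and 77.4% of all protein-coding genes by the same 100 kb rule. For NCI-H660 these numbers were 5 genes for FOXA2 and 4 for JUN, against 52.6% and 78.9%. Having a region within 100 kb was thus common among genes. Of the 39 PC3 FOXA2 regions 20 lay in introns, 17 between genes, 1 near a transcript start and 1 in an untranslated stretch.

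**Figure D1:**
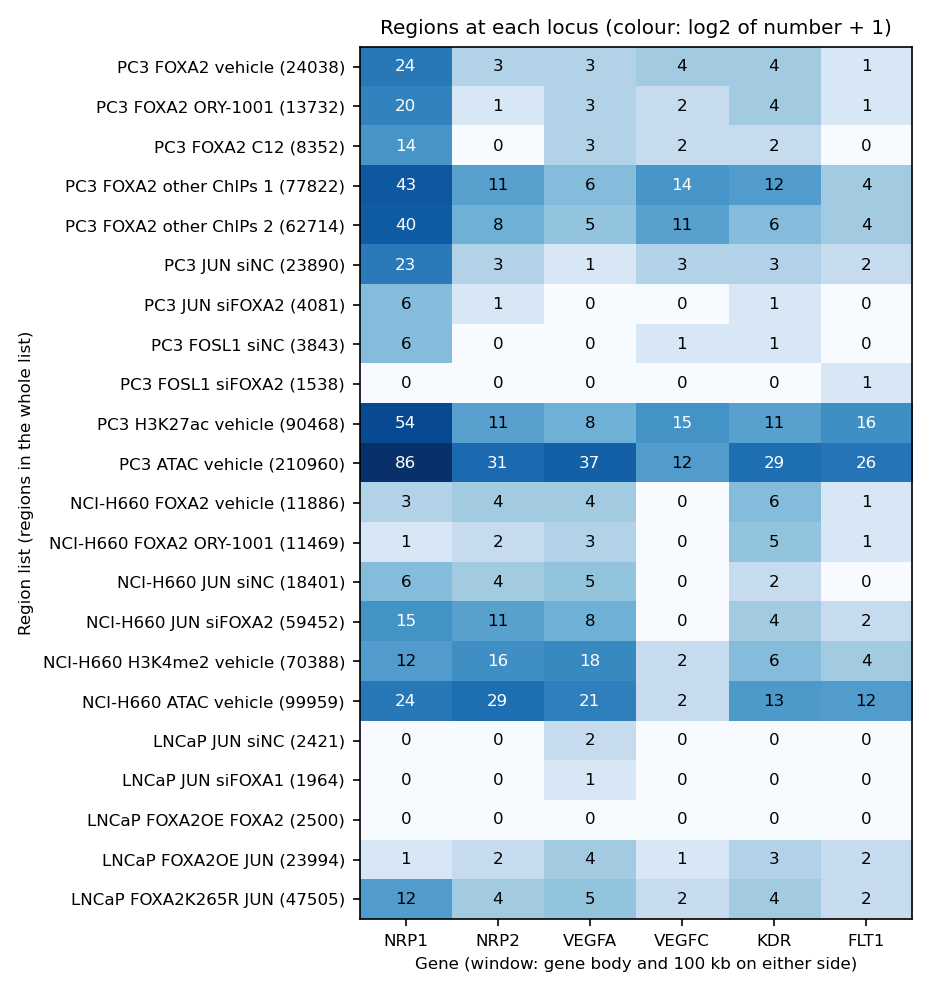
Number of regions at each of the 6 loci (columns) in each of the 22 lists (rows, with the length of the whole list in parentheses); the colour is log2 of the number plus 1. NRP1 is the darkest column in 10 of the 11 PC3 lists, FOSL1 siFOXA2 being the exception, with 24 FOXA2 vehicle and 23 JUN siNC regions, while VEGFC is empty in the NCI-H660 FOXA2 and JUN lists.

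The NRP1 locus (chr10:33366420-33725190, a window of 359 kb with no other protein-coding gene) held 24 PC3 FOXA2 regions with vehicle, 6.69 per 100 kb against a median of 0.482 over all protein-coding genes. Only 19 genes, NRP1 among them, or 0.0942%, had as many, and 2 were as dense. For JUN the 23 regions made 6.41 per 100 kb, with 21 genes having as many (0.104%). The 2 other PC3 FOXA2 ChIPs had 43 and 40 regions there, in longer lists of 77822 and 62714 regions against 24038. Their medians over all protein-coding genes were 6 and 5. In these lists 103 genes (0.511%) and 56 genes (0.278%) had as many as NRP1, so a high number was not particular to the vehicle ChIP. Of the 24 NRP1 regions, 24 were also in each of these 2 lists, and over the 6 loci this held for 39 of 39 in both, against 92.5% and 90.8% of the whole vehicle list.

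The FOXA2 region with the highest score lay at chr10:33444862-33445491, 180 kb downstream of the NRP1 start and 20929 bp past the end of the gene. The score is a whole number per region that grows with the significance of the peak. This region had a score of 12604 with vehicle, ranking 7 of 24038, then 2637 with ORY-1001 and 2624 with C12. In the 2 other FOXA2 ChIPs it had scores of 3412 and 3460, ranking 8 and 3. JUN was listed there with a score of 2934 in siNC and 74 in siFOXA2, and FOSL1 with 134 in siNC and not in siFOXA2. It carried ATAC (10640) and H3K27ac (4052) in PC3 and was in no NCI-H660 or LNCaP list, so within these data it was a PC3 region.

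The FOXA2 region next in score, chr10:33553102-33553621, lay 71.8 kb inside NRP1, within 1 kb of the start of a shorter annotated transcript. Its FOXA2 score was 8091 with vehicle (rank 12), 8041 with ORY-1001 (rank 10) and 4784 with C12 (rank 19). JUN scored 5497 in siNC and 1144 in siFOXA2, and FOSL1 scored 688 in siNC and was absent in siFOXA2. Unlike the region downstream of the gene, it was shared with NCI-H660, where FOXA2 scored 249 with vehicle and JUN 410 in siNC, with ATAC at 1047 and H3K4me2 at 52. In that line neither factor was listed there after treatment, FOXA2 with ORY-1001 and JUN with siFOXA2. It was found in 14 of the 22 lists, a number matched among the NRP1 FOXA2 and JUN regions only by an intron region 98.1 kb from the start.

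JUN had its own strongest place at NRP1, chr10:33422918-33423412, 202 kb downstream of the start and 43008 bp past the gene end. The JUN score was 7149 in siNC, rank 12 of 23890, and 1242 in siFOXA2, rank 56 of 4081. FOSL1 scored 1232 there in siNC and was not listed in siFOXA2. The PC3 FOXA2 vehicle list had no region there, although the 2 other FOXA2 ChIPs did, with scores of 246 and 174. The median scores of these 2 lists were 131 and 123. In NCI-H660, JUN scored 650 in siNC and 353 in siFOXA2, and in LNCaP FOXA2K265R cells it scored 48. This was the JUN region with the highest score that persisted in PC3 and was also one of the NRP1 places where JUN persisted in NCI-H660. In that intron region, chr10:33526851-33527286, JUN scored 1514 in siNC and 168 in siFOXA2 in PC3, and 166 and 62 in NCI-H660. FOXA2 scored 267 there in PC3 with vehicle and was not listed in NCI-H660.

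**Figure D2:**
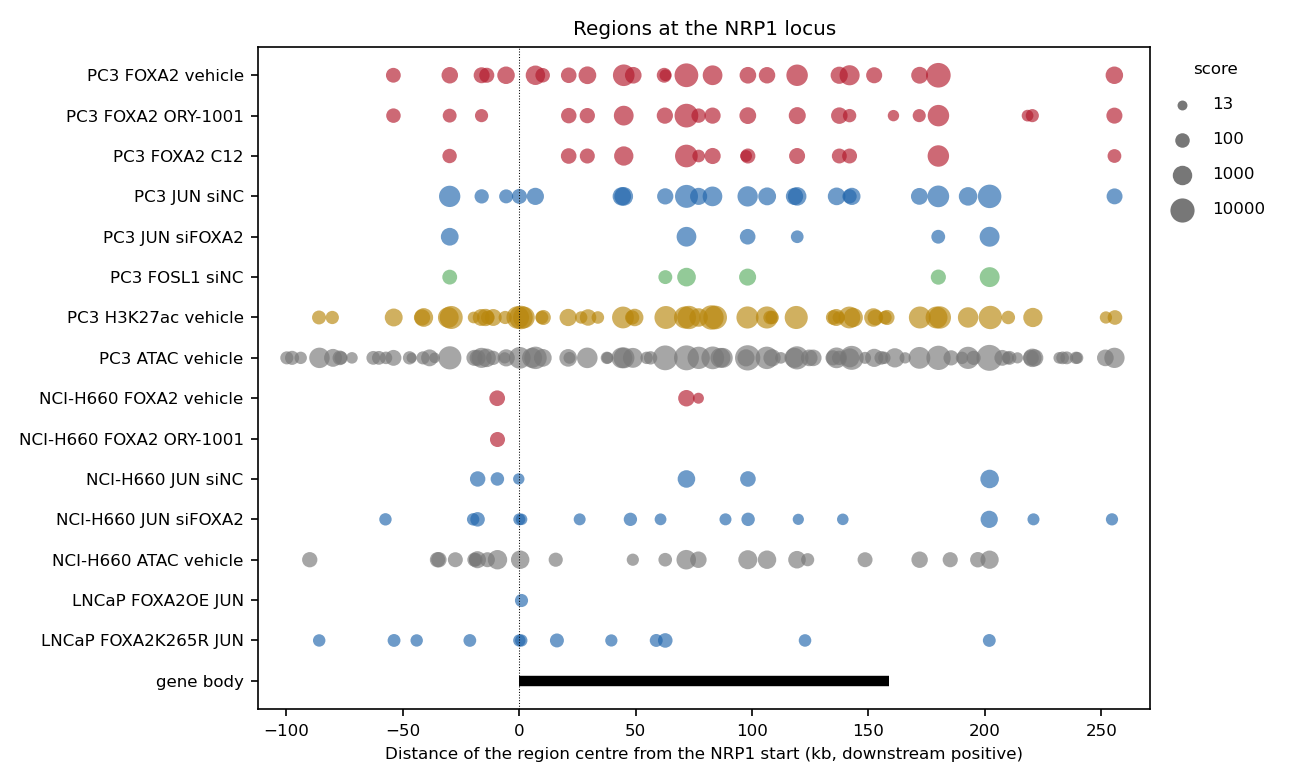
Regions at the NRP1 locus, with the distance of each region's centre from the gene start in kb on the horizontal axis and 15 of the lists as rows; the area of a point grows with the log of the score (FOXA2 red, JUN blue, FOSL1 green, H3K27ac gold, ATAC grey). The 24 PC3 FOXA2 and 23 PC3 JUN siNC regions run along the whole gene body and past its end, and 6 JUN regions are left in PC3 with siFOXA2.

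With ORY-1001, 17 of the 24 NRP1 FOXA2 regions overlapped a region of the treated list, and with C12 12 of 24 did. Over the 6 loci 25 of 39 were kept with ORY-1001 (64.1%, 95% Wilson interval 48.4 to 77.3) against 36.8% of the whole list, and 19 of 39 with C12 (48.7%, 33.9 to 63.8) against 29.6%. These intervals cover counting error only, and since the contrast itself chose NRP1, nothing is read from the gap to the whole list. Leaving NRP1 out, 8 of 15 regions were kept with ORY-1001 (53.3%) and 7 of 15 with C12 (46.7%). Regions with high scores were kept more often in the whole list, and taking the share of the whole list over the same 10 score classes gave 50.3% and 46.9% for these 15 regions. Persistence at the other 5 genes was thus close to that of regions with like scores.

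Persistence did not mean an equal score. Among the 25 regions kept with ORY-1001, 21 had a lower score than with vehicle, with a median log2 ratio of treated to vehicle score of -1.29, against -0.66 in the whole list. With C12 18 of 19 were lower, with a median of -1.78 against -1.22. The region at chr10:33483061-33483530, in an untranslated stretch of an NRP1 transcript, went from 1372 to 61 with ORY-1001 and 121 with C12. The kept and lost regions overlapped widely in score. The lowest-scoring region kept with ORY-1001 (chr10:33562257-33562514) had a vehicle score of 29. It overlapped an ORY-1001 region of 705 bp (222) that also overlapped the vehicle region chr10:33562750-33563043 (119). Both therefore count as kept through the same treated region. The highest-scoring region lost with both inhibitors (chr10:33617988-33618406, 6.99 kb downstream of the NRP1 start) had 998. The lowest-scoring region kept with C12 (chr10:33603762-33604043) had 164.

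Some regions of the treated lists had no overlap in the vehicle list and are called new. With ORY-1001 7 of 31 were new (22.6%), against 35.6% of that list and 26% over the same score classes, and with C12 2 of 21 (9.52%), against 14.9% and 8.61%. New does not mean found with an inhibitor alone, since 3 of the 7 and 2 of the 2 were also in at least 1 of the other PC3 FOXA2 ChIPs, which are titled vehicle. A place was common to both, at chr10:33547990-33548266 with ORY-1001 (score 95) and chr10:33547941-33548249 with C12 (44), 77.1 kb inside NRP1. It was listed for FOXA2 in the first of the other PC3 ChIPs with a score of 118, in the top 54.1% of that list. The ORY-1001 score of 95 was in the top 48.5% of its own list. NCI-H660 FOXA2 with vehicle scored 21 at this place, and PC3 JUN in siNC 333. Of the other new regions with ORY-1001, 4 were in no other list, with scores of 20 to 29.

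Silencing of FOXA2 left few AP-1 regions at the PC3 loci. Of the 35 JUN regions in siNC, 6 overlapped a region in siFOXA2 (17.1%, 95% Wilson interval 8.1 to 32.7), against 13.4% of the whole list, which itself went from 23890 to 4081 regions. When both lists were cut by score to the length of the shorter, 6 of 16 were kept (37.5%), against 47.4% of the whole list, so the order of the loci and the whole list was the opposite. The 6 were at NRP1, out of 23 there, and 0 of the 12 regions at the other 5 genes persisted. The share of the whole list over the same score classes was 36.9% for the NRP1 regions and 8.39% for the 12 others. The scores of the 6 in siNC and siFOXA2 were 7149 and 1242, 5497 and 1144, 2934 and 74, 2461 and 448, 1514 and 168, and 655 and 45. Their median log2 ratio of -2.85 compares with -1.85 for the kept regions of the whole list. The lowest of the 6 in siNC, at chr10:33505594-33506020, had 655, and the highest-scoring region that was lost, at chr10:33541674-33542672 in the NRP1 intron, had 1120.

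FOSL1, the AP-1 partner of JUN, was listed at fewer places, in a siNC list of 3843 regions against 23890 for JUN. The share of the list at the loci was 0.208% for FOSL1 and 0.147% for JUN. These 2 lists came from different processing folders, so their scores are not compared. Of the 8 siNC regions of FOSL1, 7 overlapped JUN. The 8 regions at the loci, 6 of them at NRP1, 1 at VEGFC and 1 at KDR, scored from 40 to 1232, and 0 of 8 were kept in siFOXA2, against 6.9% of the whole list. At 0 of 8 the Wilson interval reaches 32.4%. The siFOXA2 list had 1 region at the loci, 11.8 kb upstream of FLT1, with the score of 13 that is the lowest in that list. In JUN, siFOXA2 added 2 new JUN regions, at NRP2 and KDR with scores of 14 and 27, so 2 of the 8 siFOXA2 regions at the loci were new, against 21.5% of that list.

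**Figure D3:**
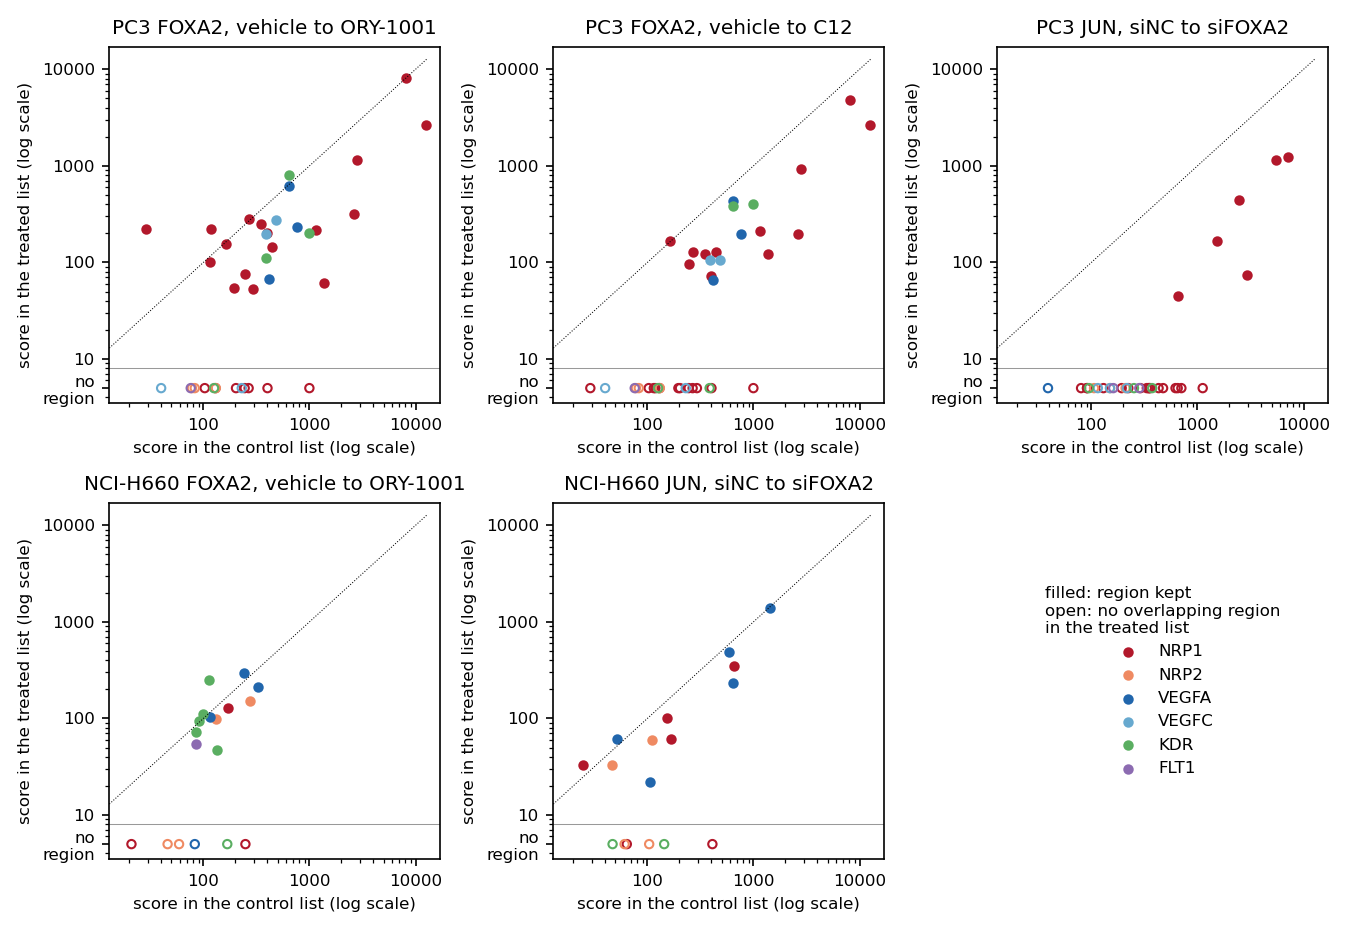
Score of each region at the 6 loci in the control list (horizontal, log scale) and of its best overlapping region in the treated list (vertical, log scale), coloured by gene, with open points on the bottom line for regions that had no overlap. In PC3 most filled points lie under the dotted line of equal scores, with the 6 kept JUN regions all at NRP1, while the NCI-H660 points lie nearer to it.

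NRP1 lies within a stretch of chromosome 10 that was dense in regions in PC3 as a whole. In bins of 1 Mb, PC3 ATAC had 158 to 219 regions in the 5 Mb upstream of the NRP1 start and 167 in the Mb downstream, and then 48 to 73 in the next 4 bins, where the genome median was 64 and the 90th percentile 135. FOXA2 with vehicle had 24 to 33 regions per bin from 2 Mb upstream to 1 Mb downstream and 6 to 9 in the next 4 bins. JUN in siNC had 24 to 36 and 4 to 19. In the bins farther upstream, farthest first, FOXA2 had 5, 38 and 20 regions and JUN 8, 30 and 24. The highest FOXA2 bin of the stretch was thus not the one with NRP1. NCI-H660 ATAC had 35 to 59 regions per bin from 2 Mb upstream to 1 Mb downstream and 43 to 52 in the next 4 bins, with 9, 2 and 24 in the bins farther upstream. Within the Mb on either side of the NRP1 start, the window had 66.9 FOXA2 regions per Mb and the rest 21.9. For JUN these were 64.1 and 21.3. Regions of these 2 factors chose the locus, so nothing is read from these gaps. ATAC, which was not used to choose it, had 240 and 168 regions per Mb. The part of the wider density of the stretch in the NRP1 counts was not tested.

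**Figure D4:**
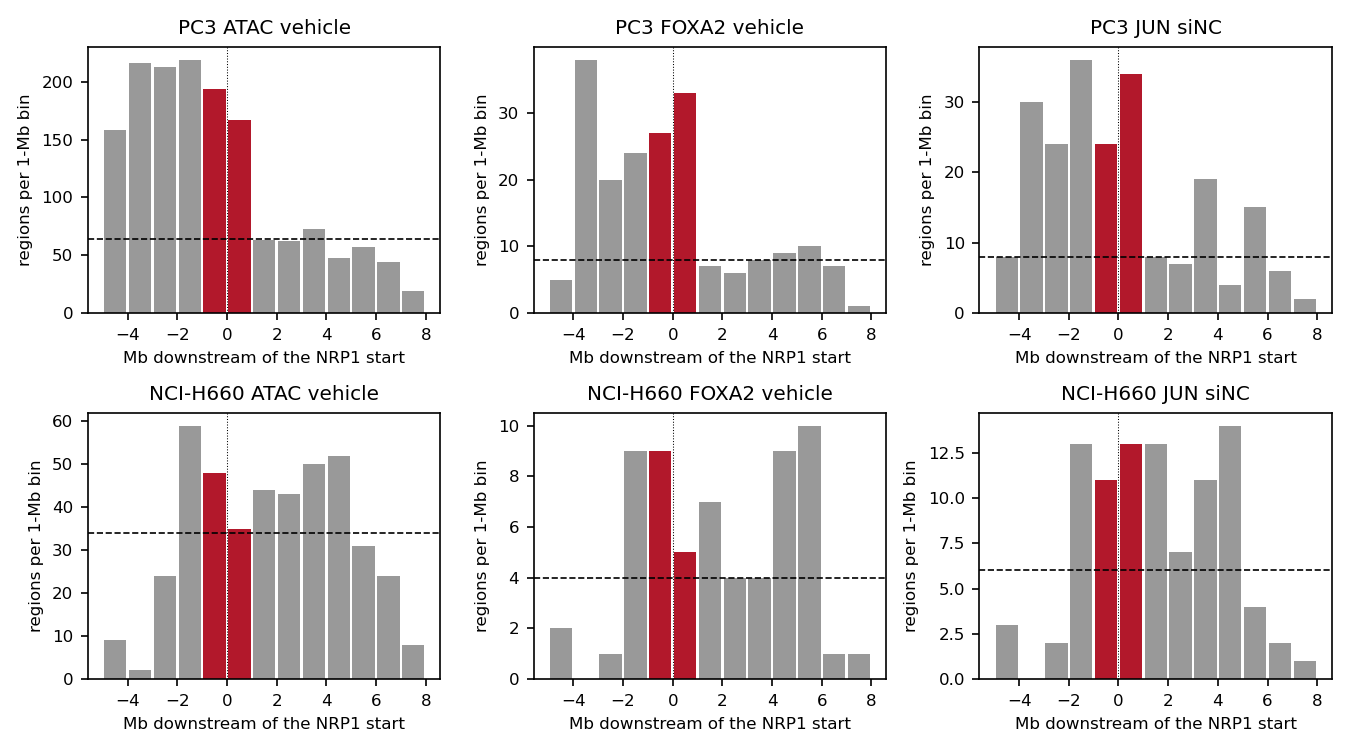
Regions per 1-Mb bin (vertical) against the distance from the NRP1 start in Mb, downstream positive (horizontal), in 6 lists; red bars are the bins on either side of the start and the dashed line is the genome median of that list. The PC3 bars drop 1 Mb downstream of the start, for ATAC from 167 to 63, while NCI-H660 ATAC goes from 35 to 44.

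Chromatin marks not used to choose the loci were also abundant at NRP1 in PC3. H3K27ac covered 55.4 kb of the window (15.4%) in 54 regions and ATAC 30.6 kb (8.53%) in 86 regions, whereas at the other 5 genes H3K27ac covered 2.16% to 3.28% and ATAC 1.64% to 5.36%. In NCI-H660 ATAC covered 3.75% of the NRP1 window, less than at NRP2 (5.81%) or VEGFA (6.8%). Of the 24 NRP1 FOXA2 regions 20 carried H3K27ac (83.3%, 64.1 to 93.3), and 9 of 15 elsewhere did (60%, 35.7 to 80.2), so the intervals overlap. Over the 6 loci this was 29 of 39 (74.4%) against 58.7% of the whole list and 67.5% over the same score classes. ATAC was present at 39 of 39, against 89.3%.

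In NCI-H660 NRP1 carried 3 FOXA2 regions with vehicle and 6 JUN regions with siNC. The highest-scoring FOXA2 region was the one inside the gene at chr10:33553209-33553516 (249), which was absent with ORY-1001. The region at chr10:33634412-33634825, 9.43 kb upstream of the start, scored 172 with vehicle and 129 with ORY-1001, overlapped a JUN region (64), and was in no PC3 list. Of the 6 JUN regions 4 were shared with PC3, the only PC3 JUN regions at the 6 loci, out of 35, found in NCI-H660. Over all loci this made 4 of 35 PC3 JUN regions (12.8% of the whole list) and 4 of 17 NCI-H660 JUN regions (16.5%).

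NRP1 also had low-scoring JUN regions within 1 kb of its main start in all 3 lines. PC3 JUN in siNC scored 130 at chr10:33624668-33625488 and was not listed in siFOXA2, while NCI-H660 JUN scored 25 in siNC and 33 in siFOXA2. LNCaP JUN scored 54 in FOXA2OE cells and 38 in FOXA2K265R cells. H3K27ac at this start reached 7204 in PC3. Each of the other 5 gene starts had ATAC in both lines, H3K27ac in PC3 and H3K4me2 in NCI-H660, but none of the 6 starts had a FOXA2 region within 1 kb in the vehicle list of either line. The other 2 PC3 FOXA2 ChIPs, also titled vehicle, did have 1 at the NRP1 start, with 154 and 134, and none at the other 5 starts.

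NRP2, the other co-receptor, had 3 PC3 FOXA2 regions, with scores of 78, 131 and 83, all in introns. None of the 3 was kept with ORY-1001 or C12, against 36.8% and 29.6% of the whole list. Its PC3 JUN regions scored 150, 210 and 106, with 2 of the 3 at the same places as FOXA2, and none was kept in siFOXA2. The FOXA2 region with the highest score, chr2:206613449-206613738, had 131 and coincided with the highest-scoring JUN region, chr2:206613450-206613699, with 210. NCI-H660 had 4 FOXA2 regions of 46 to 277, the highest at chr2:206651729-206651968, in an intron 105 kb downstream of the start, with 277 with vehicle, 151 with ORY-1001 and JUN at 104. Of its 4 JUN regions the highest, chr2:206730637-206731756, scored 110 in siNC and 60 in siFOXA2. A place 24.9 kb into the gene, chr2:206571542-206571777, was shared between lines, with FOXA2 at 78 in PC3 and 46 in NCI-H660 and JUN at 46 in NCI-H660.

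At VEGFA, a ligand gene of 16.3 kb, FOXA2 in PC3 and JUN in NCI-H660 occupied different places. PC3 FOXA2 had 3 regions, with scores with vehicle, ORY-1001 and C12 of 767, 235 and 196 at chr6:43672551-43672907, of 647, 622 and 433 at chr6:43667369-43667708, and of 418, 67 and 66 at chr6:43814234-43814666. All 3 were kept with both inhibitors, against 36.8% of the whole list with ORY-1001 and 29.6% with C12. The pair upstream of the gene lies in a window that also holds the genes MRPS18A and RSPH9. JUN was listed in PC3 at the last of them only, with 39 (chr6:43814276-43814616). NCI-H660 FOXA2 had 4 regions, the highest at chr6:43795604-43795880 with 328 with vehicle and 211 with ORY-1001.

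NCI-H660 JUN had 5 regions at VEGFA and all 5 persisted in siFOXA2. The highest, chr6:43766526-43766928, 28.8 kb downstream of the start and 12302 bp past the gene end, scored 1430 in siNC and 1391 in siFOXA2. LNCaP JUN was also listed there in siNC, where the list carries no score, and scored 148 in siFOXA1 and 819 in FOXA2K265R cells. The PC3 JUN and FOXA2 lists had nothing there, though PC3 ATAC (721) and H3K27ac (150) did. The next JUN regions scored 635 and 583 in siNC and 234 and 483 in siFOXA2. The first of these was also listed for LNCaP JUN in siNC.

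VEGFC, the other ligand gene, had FOXA2 and JUN regions in PC3 and none in NCI-H660. PC3 FOXA2 scored 485 at chr4:177715335-177715710, 1.45 kb upstream of the start, with 276 with ORY-1001 and 106 with C12. JUN scored 150 there in siNC and was not listed in siFOXA2. A region 90.9 kb upstream, chr4:177804380-177805534, went from 388 to 196 and 107, and its JUN region, chr4:177804749-177805435 with 216, was the highest at VEGFC. The other 2 FOXA2 regions, with 230 and 40, were lost with both inhibitors. In NCI-H660 the window had 2 ATAC and 2 H3K4me2 regions, against 12 ATAC and 15 H3K27ac regions in PC3, and within 1 Mb of the start NCI-H660 had 22 ATAC regions against 93 in PC3.

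At KDR, the gene of VEGFR2, FOXA2 and JUN did not share a region in PC3. None of the 4 FOXA2 regions overlapped JUN and none of the 3 JUN regions overlapped FOXA2, whereas over the 6 loci 22 of 39 FOXA2 regions (56.4%, 41 to 70.7) overlapped JUN, against 44.3% of the whole list. The 39 include the 4 at KDR. At 0 of 4 the interval reaches 49% and covers counting error only, and whether KDR differs from the other loci was not tested. The FOXA2 region with the highest score, chr4:55988457-55988869, lay 3.1 kb into the gene in an intron, with 980 with vehicle, 204 with ORY-1001 and 407 with C12. The PC3 JUN regions scored 374, 252 and 95, the highest being chr4:56050315-56050727, 58.8 kb upstream of the start, which FOSL1 shared with 76.

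NCI-H660 had more FOXA2 regions at KDR than at any other of the 6 loci, 6 with vehicle. They scored 168, 135, 113, 99, 91 and 85, and 5 of them were kept with ORY-1001, at 47, 250, 110, 95 and 72 in the order of the last 5. The whole list kept 68.4%. By number, 321 genes (1.59%) had at least 6 in the list. With 2.43 regions per 100 kb in a window of 247 kb, KDR was among the 40 genes (0.198%) with at least this density. JUN had 2 regions in siNC, of 144 (chr4:56010041-56010359) and 47, and neither was kept in siFOXA2.

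FLT1, the gene of VEGFR1, had 1 FOXA2 and 2 JUN regions in PC3, each the median number over all protein-coding genes. PC3 FOXA2 had 1, at chr13:29148922-29149174, 79.8 kb upstream of the start, with 76 with vehicle and none with either inhibitor. JUN scored 283 there, at chr13:29148845-29149170, and 161 18.8 kb into the gene, and neither was listed in siFOXA2. NCI-H660 FOXA2 had 1 region, chr13:29120042-29120291, with 85 with vehicle and 55 with ORY-1001, and NCI-H660 JUN had none in siNC.

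**Figure D5:**
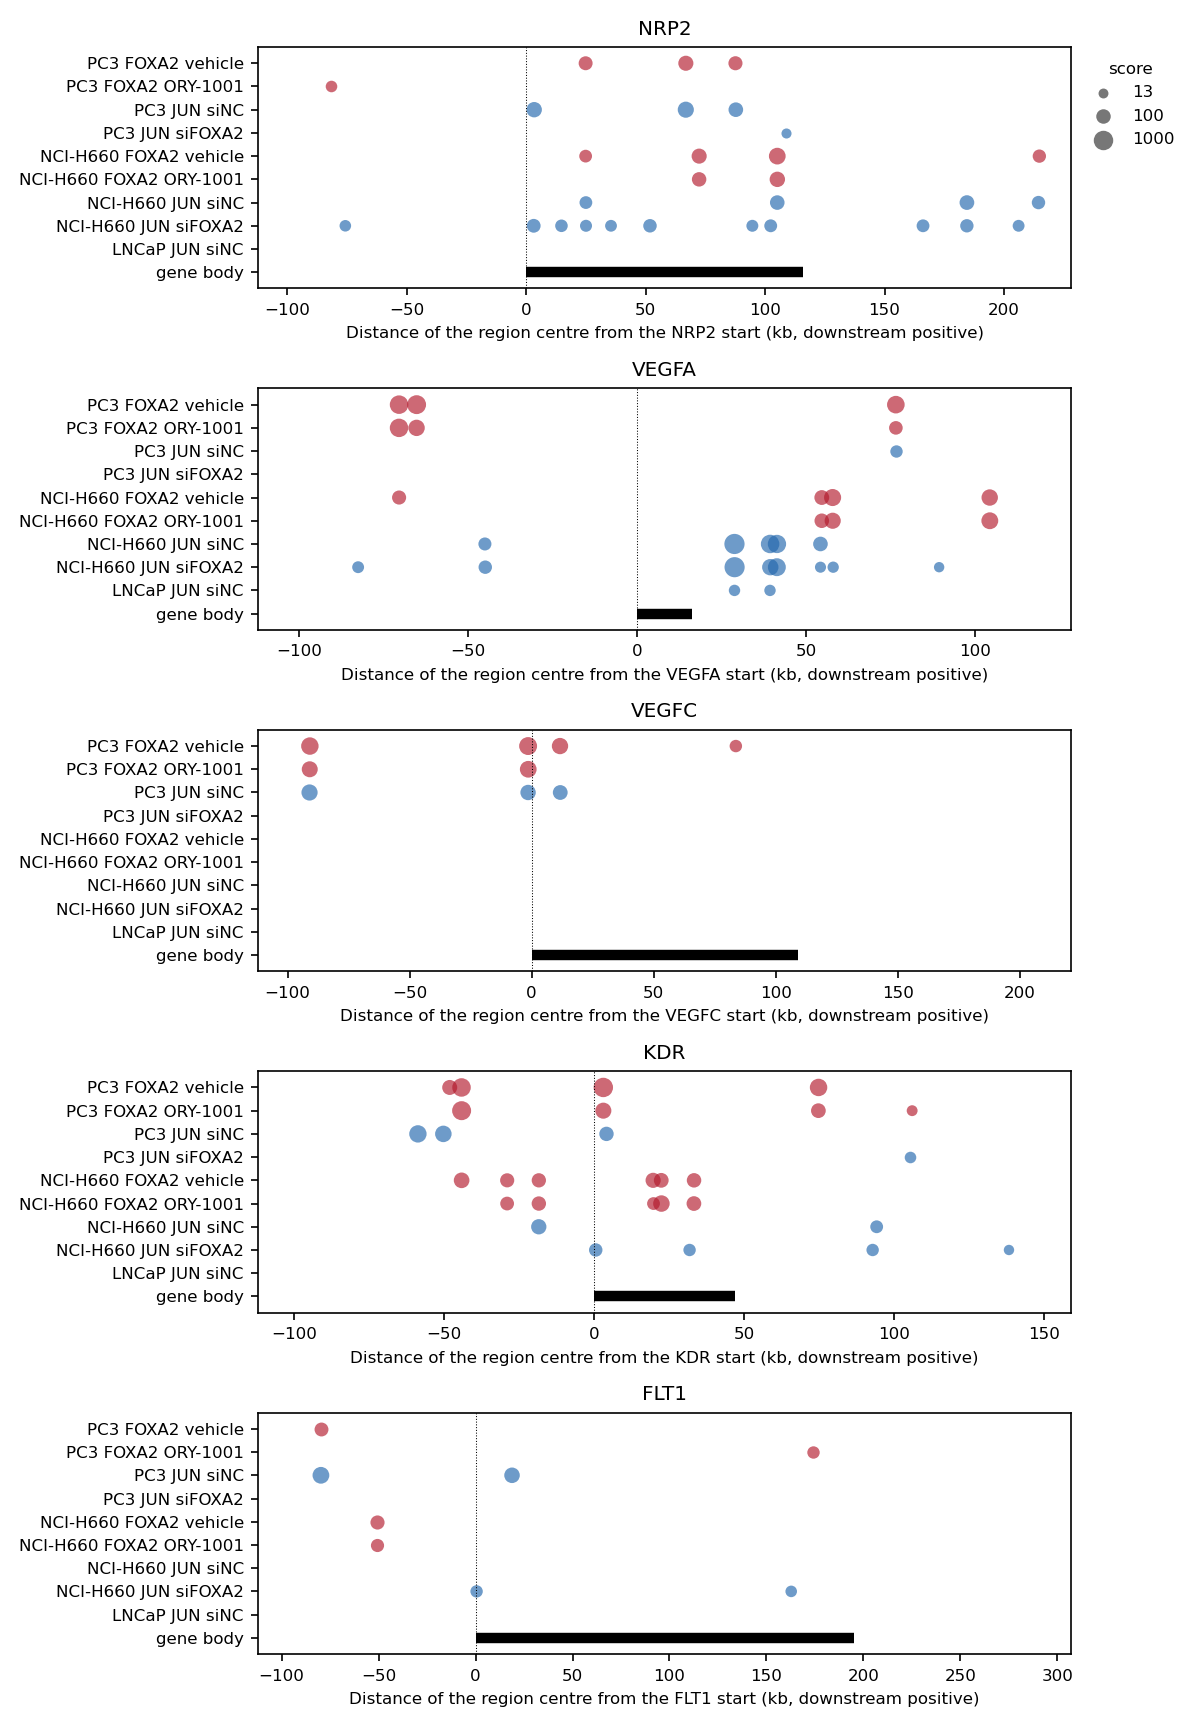
Regions at NRP2, VEGFA, VEGFC, KDR and FLT1 by distance from each gene's start in kb, downstream positive, in 9 lists (FOXA2 red, JUN blue; the area grows with the log of the score, and LNCaP JUN siNC points, which carry no score, have a fixed area). The 3 VEGFA FOXA2 regions of PC3 stay in place with ORY-1001, the NCI-H660 VEGFA JUN regions stay with siFOXA2, and VEGFC has points in PC3 rows only.

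FOXA2 silencing went with a different number of JUN regions in the 2 lines. At the 6 loci PC3 JUN had 35 regions in siNC and 8 in siFOXA2, and NCI-H660 JUN had 17 and 40, while the whole NCI-H660 list went from 18401 to 59452. In NCI-H660 11 of 17 were kept (64.7%, 41.3 to 82.7), against 48% of the whole list and 54.4% over the same score classes. The number rose, but 9 of these 11 had a lower score in siFOXA2. Their median log2 ratio of siFOXA2 to siNC score was -0.59, against -0.28 in the whole list. The lowest-scoring region kept, at the NRP1 start (chr10:33625099-33625607), had 25, and the highest-scoring region lost, inside NRP1 (chr10:33553155-33553550), had 410. Of the 40 in siFOXA2 29 were new (72.5%), against 85.2% of that list. The new regions had low scores of 16 to 73, and 7 of the 29 overlapped NCI-H660 ATAC. Among these 7 were regions at the starts of NRP1, KDR and FLT1, with scores of 27, 62 and 39.

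ORY-1001 in NCI-H660 kept 12 of 18 FOXA2 regions (66.7%, 43.7 to 83.7), against 68.4% of the whole list, and 0 of the 12 regions in the treated list were new, against 29.1%. The scores of the kept regions moved less than in PC3, with a median log2 ratio of -0.33, against -0.03 in the whole list. Few FOXA2 regions were common to the lines, with 4 of 39 PC3 regions in NCI-H660 (10.3%, 4.06 to 23.6; 11.1% of the whole list) and 4 of 18 NCI-H660 regions in PC3 (22.2%; 22.5%), 1 each at NRP1, NRP2, VEGFA and KDR. With ORY-1001, 0 of these 4 shared places were kept in NCI-H660 and 3 of 4 in PC3, a count made after the values were seen. The whole lists kept 68.4% in NCI-H660 and 36.8% in PC3. The share kept among all places shared by the lines was not computed, so nothing is read from this count. In NCI-H660 the lowest-scoring region kept was the FLT1 region of 85 and the highest-scoring region lost the NRP1 region of 249. In NCI-H660 6 of 18 FOXA2 regions overlapped JUN, against 36.4%, 18 of 18 ATAC, against 90.9%, and 12 of 18 H3K4me2, against 62.7%.

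The share of FOXA2 regions with JUN in PC3 was close to that of the whole list over the same score classes, and the share of JUN regions with FOXA2 was higher than that of its list but within the counting interval. The 22 FOXA2 regions with JUN (56.4%) compare with 55.1% of the whole list over the same score classes. From the side of JUN, 22 of 35 regions overlapped FOXA2 (62.9%, 46.3 to 76.8), against 44.5%, or 50.9% over the same score classes. FOSL1 was at 5 of 39 FOXA2 regions, all at NRP1 (12.8%, 5.6 to 26.7), against 7.24%, or 9.44% over the same score classes.

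The motifs were counted within 100 bp of the centre of each region. The AP-1 motif was in 16 of 39 PC3 FOXA2 regions (41%, 27.1 to 56.6), against 26.3% of the whole list, and the forkhead motif in 27 of 39 (69.2%, 53.6 to 81.4), against 77.2%. In PC3 JUN regions AP-1 was in 20 of 35 (57.1%, 40.9 to 72), against 49.4%, and forkhead in 17 of 35 (48.6%, 33 to 64.4), against 43.3%. AP-1 was in 8 of 24 FOXA2 regions at NRP1 (33.3%, 18 to 53.3) and in 8 of 15 elsewhere (53.3%, 30.1 to 75.2). In JUN regions the forkhead motif was in 8 of 23 at NRP1 (34.8%, 18.8 to 55.1) and in 9 of 12 elsewhere (75%, 46.8 to 91.1), and in both cases the intervals overlap. Of the 6 JUN regions kept in siFOXA2 5 had the AP-1 motif, and of the 29 lost 15 did, while in the whole list the shares were 50% and 49.3%. The forkhead motif was in 2 of the 6 kept and 15 of the 29 lost, and in 32% and 45% of the whole list. The 6 all lay at NRP1, which was chosen by its kept regions, so nothing is read from these counts at the loci.

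The LNCaP lists held from 0 to 29 regions at the loci. JUN had 2 regions in siNC and 1 in siFOXA1, all at VEGFA, and the FOXA2 list of FOXA2OE cells, which holds 2500 regions and no scores, had none. JUN had 13 regions at the loci in FOXA2OE cells, with scores up to 95, and 29 in FOXA2K265R cells, with scores up to 819. The 2 lists had different lowest scores, 30 and 23, and were processed in different folders, so their numbers cannot be compared. Of the PC3 JUN regions 3 of 35 overlapped the FOXA2K265R list, all at NRP1, against 8.88% of the whole list, and 0 of the 13 FOXA2OE regions overlapped a PC3 JUN region.

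A list of 21 further genes of the pathway, from VEGF ligands, semaphorins and plexins to hypoxia factors, was counted in the same way. A PC3 FOXA2 region was found at 18 of the 21, against 70.2% of all protein-coding genes, with a median of 2 regions against 1. A PC3 JUN region was found at 19, against 77.4%, with a median of 4 against 2. NCI-H660 FOXA2 was at 13 of 21, against 52.6%, with a median of 1 against 1, and JUN at 19, against 78.9%, with 2 against 2. SEMA3A, which encodes a class 3 semaphorin that binds NRP1, had the most of the 21 for PC3 FOXA2 with vehicle (19) and JUN in siNC (14). It had 4 FOXA2 regions with ORY-1001 and 8 with C12, and 4 JUN regions in siFOXA2. HIF1A, the hypoxia-inducible factor upstream of VEGFA, had 9 FOXA2 regions with vehicle, 6 with ORY-1001, the most of the 21 in that list, and 4 with C12.

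The limit of 100 kb on either side decided which regions were counted. At NRP1 the outermost PC3 FOXA2 region inside lay 96.7 kb from the gene body with a score of 397, and the nearest outside 142 kb with 196. At VEGFC these were 90.3 kb with 388 and 104 kb with 118. At KDR they were 48 kb with 126 and 153 kb with 813, so a region with a higher score than most at KDR was not counted.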

How the data were processed

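Per the labels and the study's methods, the authors aligned reads with BWA 0.7.17-r1188 to hg19 and called peaks per library with MACS2 2.1.4 (FastQC 0.11.9, SAMtools 1.9), and deposited 22 BED lists, 20 of which give each region a whole-number score. The score column of the deposited lists is read here as 10 times −log10 of the q-value, which the files do not state, and it depends on depth, which the files do not give. No list holds counts, so no count model was used.

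Regions were assigned with GENCODE v44lift37 in Python 3.11.15 (NumPy 2.4.6, pandas 2.3.3, SciPy 1.17.1). All 871377 regions lay inside the GRCh37 chromosomes. A region was kept if it overlapped the other list by at least 1 bp, and shares carry 95% Wilson intervals. The overlap, motif and interval code was tested on simulated data. Compared treatment pairs came from the same processing folder. Named regions were, for each gene, those with the highest score in 4 lists, and those at the edge between kept and lost; other regions were named after their values were seen. The 6 genes, the pathway list and the rules were chosen with earlier results of these data known. The windows, score threshold, recurrent places, overlap, list length and FOXA2 list were varied. The sequence of a further region is not reported here.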

Additional observations from a re-analysis of the deposited data

Results flagged for a closer look

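The number of JUN regions at the 6 loci differed in direction between the lines after FOXA2 silencing. In PC3 it differed by -27 (35 in siNC and 8 in siFOXA2), and in NCI-H660 by 23 (17 and 40). The whole lists went the same way as the loci in each line, from 23890 to 4081 regions in PC3 and from 18401 to 59452 in NCI-H660. Scores did not rise with the number in NCI-H660, where 9 of the 11 kept regions at the loci scored lower in siFOXA2. With 1 list for each line and siRNA the difference between the lines was not tested, and the depth of the libraries is not in the files.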

How the results depend on the processing

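With 1 list in each group no replicate could be left out, and of the 79 alternative values 66 stayed within 1.5 times the count or within the Wilson interval of the share. The other 13 were as follows. When the further FOXA2 ChIPs replaced the vehicle ChIP, PC3 FOXA2 had 90 and 74 regions at the loci, 33.3% and 36.5% of which overlapped JUN and 54.4% and 58.1% H3K27ac. These lists are longer, with 77822 and 62714 regions against 24038. With 200 kb on either side PC3 JUN had 54 regions and NCI-H660 JUN 35. When both lists of a pair were cut by score to the same length, 72% of PC3 FOXA2 regions were kept with C12 (61.2% of the whole list) and 37.5% of PC3 JUN regions with siFOXA2 (47.4%). An overlap of 50% of both regions left 5.13% of FOXA2 regions with H3K27ac (5.14% of the whole list), the median widths being 323 bp and 573 bp. Within 250 bp of the centre the forkhead motif was in 87.2% of FOXA2 and 77.1% of JUN regions. Where no other value is given, the cause was not tested. A region missing from a list may lie under the threshold at the depth of that library, which the files do not give. No paired analysis was possible because each treatment has 1 list.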
